A study of Mus musculus with 4 samples.

Results

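The Hox cluster genes encode homeodomain transcription factors, and they were followed here across the epithelium of the developing, adult and irradiated mouse intestine in single-cell RNA sequencing data. Members were all features named Hoxa, Hoxb, Hoxc or Hoxd followed only by a number. The rule took 40 of 31054 features in each of the 4 libraries, with 39 symbols, since Hoxd4 is listed under 2 gene identifiers. In the mm10 gene annotation the HoxA members lie on chromosome 6 (Hoxa13 at its outer end, 52257694 to 52260880), the HoxB members on chromosome 11 (Hoxb13 to Hoxb1, 96194316 to 96368256), the HoxC members on chromosome 15 (Hoxc13 to Hoxc4, 102921103 to 103036852) and the HoxD members on chromosome 2 (Hoxd13 to Hoxd1, 74668310 to 74765142).

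The study profiled sorted intestinal epithelial cells of Bmi1-GFP mice, in which GFP reports the Polycomb gene Bmi1, with droplet 3' sequencing. Its groups were embryos of day 12.5 (E12.5) and of day 17.5 (E17.5), adults without a stated treatment and irradiated adults, with 1 library each and the same Bmi1-GFP genotype in all. Per the labels' protocols the intestine was taken at E12.5 and the small intestine at E17.5, while the intestinal region of the adults, the dose and time of irradiation, zygosity, sex, adult age, sort gates and the number of animals per library were not given in the sources used here. With 1 library per group no test between groups was possible. Values below are UMIs (unique molecular identifiers, each standing for 1 captured transcript) summed over cells and divided by all UMIs of those cells, per 1000000 UMIs (CPM), and every interval is a 95% interval that covers counting error only. A transcript is counted at its 3' end, so levels were not divided by gene length and levels of single genes are set against each other between cells, not between genes.

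Hox genes are arranged on their chromosomes in the order in which they act along the body axis. Members are numbered in paralogue groups, from group 1 at the anterior end to group 13 at the posterior end, and lower numbers tend to be active earlier and further forward. In the gut, regional Hox codes are set up in the embryo in mesenchyme and epithelium, and group 13 genes mark the hindgut.

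The 4 libraries held 38648331 to 90674425 UMIs in 5216 to 6287 deposited barcodes. After a filter of at least 500 genes and at most 20% mitochondrial UMIs and removal of putative doublets, the E12.5 library kept 4050 cells, the E17.5 library 4409, the adult library 3597 and the irradiated adult library 3031, with median depths of 18081.5, 11003, 3607 and 8554 UMIs per cell. Between 0 and 6 kept barcodes were shared by any 2 libraries. Cells were clustered within each library with all Hox-named genes left out, so Hox levels did not define the clusters. At E17.5, 259 stromal cells (mesenchymal-like, smooth muscle-like and mesothelial-like), 535 pancreatic acinar-like cells and 139 islet-like cells were kept apart from 3476 epithelial cells. The label of epithelium held by its markers: Epcam, Cdh1, keratins and claudins summed to between 3643 and 11817 CPM in the 4 epithelial pools and to 458 CPM in the stroma, and the 8 mesenchymal markers summed to 547 CPM at E12.5, 92.6 at E17.5, 25.3 in adult cells (4 of 8 at 0) and 174 in irradiated adult cells (3 of 8 at 0), against 10715 in the stroma. Vim alone made up 472 of the 547 CPM at E12.5. A single marker likewise made up 89.0 of the 92.6 CPM at E17.5, 24.6 of 25.3 in adult cells and 173 of 174 in irradiated ones. The part of residual stromal RNA in the epithelial Hox levels was not tested, other than by leaving out an E12.5 cluster described below.

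Epithelial cells had the most Hox transcripts at E12.5, by a wide margin, and E17.5 stromal cells had more than any epithelial pool. Summed over the members, the level was 120.0 CPM at E12.5 (118 to 122; 9856 UMIs), 41.1 at E17.5 (39.5 to 42.7; 2553 UMIs), 35.0 in adult cells (32.9 to 37.2; 1044 UMIs), 47.9 in irradiated adult cells (45.8 to 50.2; 1858 UMIs) and 571 in the E17.5 stroma (537 to 607; 1032 UMIs). None of these intervals overlap. HoxB genes made up the largest part at E12.5 and E17.5, with 73.6 and 30.8 CPM against 35.5 and 9.39 for HoxA. In the adult HoxA stood at 19.2 and HoxB at 13.5 CPM, and in irradiated adult cells at 19.1 and 26.0. HoxC stayed between 0.515 and 2.85 CPM and HoxD between 0.0335 and 8.05 in the epithelial pools, while the stroma had 189 CPM of HoxC.

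Of the 40 rows, 38 had at least 1 UMI at E12.5, 26 at E17.5, 23 in adult cells, 22 in irradiated adult cells and 26 in the stroma. Hoxc11 and Hoxc12 had none in any of these pools, and Hoxc13 had a single UMI, at E12.5. Depth falls from E12.5 to the adult, so a row at 0 in adult cells, with 29808886 epithelial UMIs, was not detectable at that depth. After thinning each cell to 2000 UMIs, 18.8% of E12.5 cells (17.5 to 20.1; 654 of 3479) had a Hox UMI, 9.45% at E17.5 (8.47 to 10.5; 314 of 3324), 7.49% in adult cells (6.56 to 8.50; 221 of 2951), 10.9% in irradiated adult cells (9.73 to 12.2; 278 of 2548) and 63.2% of stromal cells (56.9 to 69.2; 158 of 250). In the pancreatic acinar-like cells of the E17.5 library, taken as the measure of free RNA, the share was 0.583% (0.120 to 1.69; 3 of 515), at a median depth of 12370 UMIs against 11624 for E17.5 epithelium. Thinning left out 571, 152, 646 and 483 shallower cells of the 4 libraries, in the order above. Without thinning the shares were 61.8%, 35.2%, 17.7%, 29.7% and, in the stroma, 94.2%.

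**Figure D1:**
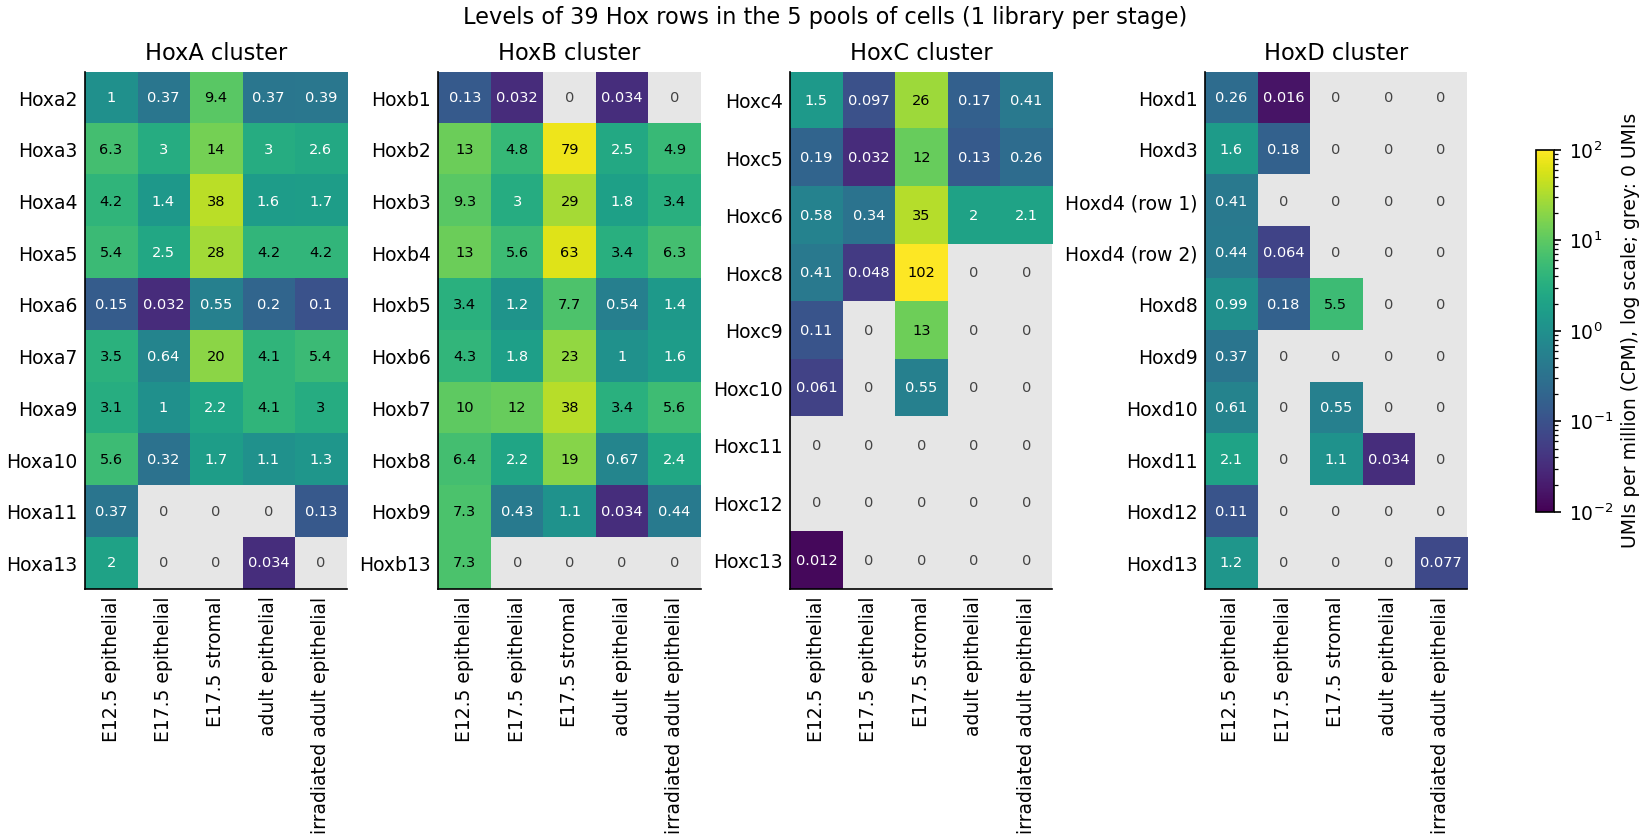
Levels of 39 Hox rows (log colour scale, CPM) in the epithelial cells of the 4 libraries and in E17.5 stromal cells. Posterior HoxB and HoxD rows and Hoxa13 are filled at E12.5 and empty or nearly so in the other epithelial pools, Hoxa9 and Hoxa10 are filled in all 4, and HoxC rows are highest in the stroma.

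The anterior genes (paralogue groups 1 to 3) summed to 35.3 CPM at E12.5, 11.5 at E17.5, 8.19 in adult cells, 11.5 in irradiated adult cells and 133 in the stroma. Hoxa3, needed for pharyngeal organs, was at 6.33, 2.99, 2.95 and 2.61 CPM across the 4 epithelial pools in that order, so that its 3 later values lay close together. Hoxb2 had 12.8, 4.83, 2.55 and 4.88 CPM, and Hoxb3 had 9.32, 2.98, 1.85 and 3.35 CPM, and for both the adult was the lowest pool. Hoxd3 was at 1.57 CPM at E12.5, 0.177 at E17.5 and 0 in both adult pools. Of the exon bases of Hoxd3, 62.3% also belong to other annotated genes on the same strand, Hoxd4 among them, and reads there may have been split or dropped.

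The middle genes (groups 4 to 8) held the most Hox UMIs in every pool, with 54.6 CPM at E12.5, 27.8 at E17.5, 21.5 in adult cells, 31.5 in irradiated adult cells and 418 in the stroma. Hoxa4 was at 4.15, 1.35, 1.61 and 1.68 CPM across the 4 epithelial pools and Hoxa5, a regulator of lung and gut mesenchyme, at 5.37, 2.54, 4.23 and 4.23. Hoxb4 (12.6, 5.55, 3.39 and 6.27 CPM), Hoxb5 (3.44, 1.19, 0.537 and 1.42) and Hoxb6 (4.31, 1.84, 1.04 and 1.60) shared an order: highest at E12.5, lowest in adult cells. Hoxb8 was at 6.35, 2.24, 0.671 and 2.40 CPM and kept that order too. Hoxb7 differed, with 10.2 CPM at E12.5, 11.7 at E17.5, 3.42 in adult cells and 5.63 in irradiated adult cells. Hoxa7 went from 3.53 CPM at E12.5 to 0.644 at E17.5, and stood at 4.13 in adult cells and 5.37 in irradiated adult cells, so E17.5 was its lowest pool. Hoxc4 was at 1.47 CPM at E12.5 and between 0.0966 and 0.413 in the later epithelial pools.

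The posterior genes (groups 9 to 13) summed to 30.2 CPM at E12.5, 1.79 at E17.5, 5.30 in adult cells, 4.95 in irradiated adult cells and 20.5 in the stroma. Hoxb13, a hindgut and prostate gene, had 597 UMIs at E12.5 (7.27 CPM) and no UMI in any later pool, and Hoxa13, which acts in limb, hindgut and genital tract, had 2.04 CPM at E12.5 and a single UMI in adult cells. Hoxd13 was at 1.24 CPM at E12.5, 0 at E17.5 and in adult cells, and 3 UMIs in irradiated adult cells, and Hoxd11 was at 2.06 CPM at E12.5 and a single UMI in adult cells. Hoxb9 was at 7.25 CPM at E12.5 and at 0.435, 0.0335 and 0.439 in the 3 later epithelial pools. Hoxa9 and Hoxa10 were lowest at E17.5 and present in both adult pools: Hoxa9, known for its role in blood progenitors, was at 3.08, 1.03, 4.13 and 3.04 CPM, and Hoxa10, a uterine regulator, at 5.57, 0.322, 1.07 and 1.26. The mean paralogue number over all Hox UMIs was 5.98 at E12.5 (5.92 to 6.05), 5.15 at E17.5 (5.07 to 5.23), 5.50 in adult cells (5.36 to 5.64), 5.36 in irradiated adult cells (5.26 to 5.46) and 5.27 in the stroma (5.14 to 5.41).

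**Figure D2:**
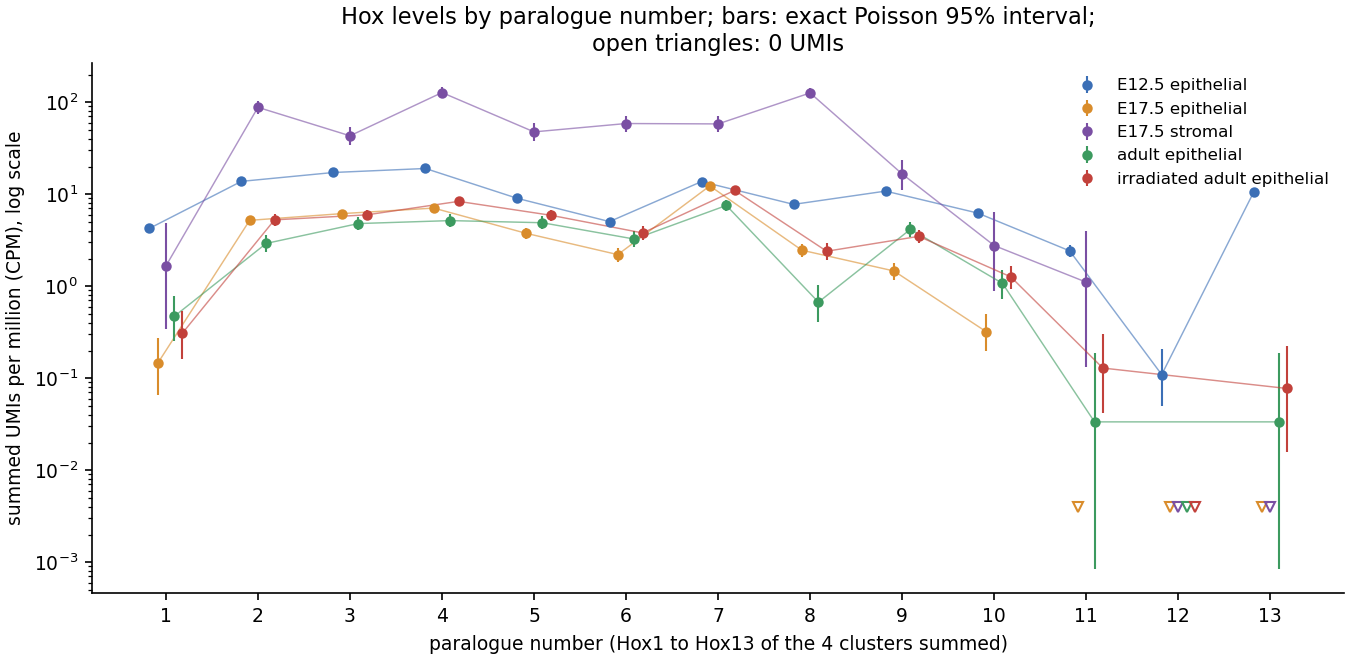
Summed level (CPM) of the members of each paralogue group, from 1 to 13, in the 4 epithelial pools and the E17.5 stroma. At E12.5 group 13 stood at 10.6 CPM and at E17.5 at 0, while group 7 was at 13.7 and 12.3 CPM.

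Between E12.5 and E17.5 the Hox genes were lower almost throughout, and most of all at the posterior end. Of the 40 rows, 34 had at least 10 UMIs in either pool and could be compared, all 34 of them at E12.5 and 18 also at E17.5. A row that passes only through the higher pool has to be lower in the other, so these counts describe and support nothing. On log2(CPM + 1), 17 of 34 were at least 2-fold lower at E17.5 (14.5% of all 16734 features tested were) and 0 were at least 2-fold higher (13.1% of all features). The median log2 ratio was -0.96 over these members and -0.15 over all features, and Hoxb7 alone lay above 0, at 1.15-fold (1.04 to 1.27). Fold changes without the added 1 CPM are given next. The anterior band was 3.07-fold lower, the middle band 1.96-fold and the posterior band 16.9-fold lower (13.9 to 20.6). By chromosome, HoxB was 2.39-fold lower, HoxA 3.78-fold, HoxC 5.53-fold and HoxD 18.5-fold (12.6 to 28.3). The HoxC value leans on the unnamed E12.5 cluster 9, described below, which held 82 of the 234 HoxC UMIs. In the E12.5 cells named epithelial HoxC was at 1.86 CPM (1.58 to 2.18), against 2.85 in the whole pool. With the floor of 3 UMIs per pool in place of 0, Hoxb13 was at least 150-fold lower at E17.5, Hoxd11 at least 42.6-fold, Hoxa13 at least 42.3-fold and Hoxd13 at least 25.7-fold. Hoxa10 was 17.3-fold lower (11.1 to 28.6), Hoxb9 16.7-fold (11.4 to 25.5), Hoxc4 15.2-fold (6.81 to 42.4) and Hoxd3 8.87-fold (4.79 to 18.2). Nearer the 2-fold threshold were Hoxa7 (5.48-fold lower), Hoxb3 (3.13), Hoxa4 (3.07), Hoxa9 (2.99), Hoxb5 (2.89), Hoxb8 (2.84), Hoxb2 (2.64) and Hoxb4 (2.26). Hoxa3 (2.11), Hoxa5 (2.11) and Hoxb6 (2.35) were lower but did not pass once 1 CPM was added to both values. The intestine was sampled at E12.5 and the small intestine at E17.5, so stage and the stretch of gut taken cannot be told apart.

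The posterior genes of the E12.5 library lay mostly in 1 cluster of cells, singled out after its Hox values were seen. Cluster 6 held 404 cells and 9.44% of the epithelial UMIs, but 71.3% of the UMIs of groups 9 to 13, 33.9% of groups 4 to 8 and 14.2% of groups 1 to 3. Its summed Hox level was 477 CPM (462 to 493), and the mean paralogue number there was 7.97 (7.87 to 8.08). In the other E12.5 clusters the mean paralogue number ran from 3.64 to 5.53, except in cluster 9, at 6.73. Hoxb9 was at 63.5 CPM in cluster 6 and 1.40 in the other E12.5 cells, 45.4-fold apart (36.7 to 56.7). Hoxd13 was at 10.1 against 0.323 CPM (31.2-fold; 19.5 to 51.6), Hoxa10 at 43.0 against 1.68 (25.6-fold; 20.8 to 31.7), Hoxb13 at 55.2 against 2.27 (24.3-fold; 20.3 to 29.2) and Hoxa13 at 13.9 against 0.806 (17.3-fold). The step grew with paralogue number, from 1.59-fold in groups 1 to 3 (1.43 to 1.76) to 4.93-fold in groups 4 to 8 (4.63 to 5.25) and 23.9-fold in groups 9 to 13 (21.9 to 26.1). Within HoxB it ran, unevenly, from Hoxb2, at 0.708 of the level elsewhere, through Hoxb4 (2.85-fold), Hoxb6 (10.3-fold) and Hoxb8 (7.21-fold) to Hoxb9 and Hoxb13. Hoxc4 went the other way and had 0 UMIs in cluster 6 and 121 elsewhere. By the 2-fold rule 19 of 33 tested members were higher in cluster 6 (57.6%, with 3.32% of all features) and 2 were lower (6.06%, with 1.9% of all features), with a median log2 ratio of 1.44 against 0.04.

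Cluster 6 was named epithelial by its markers, with Epcam at 1253 CPM and the intestinal homeobox gene Cdx2 at 336. However, the first of its leading genes was Postn, which is on the mesenchymal marker list. The part of stromal RNA in its Hox level was not tested. Among genes with known regional use along the gut, Pdx1, a duodenal and pancreatic transcription factor, was at 0.903 CPM, Gata4 of the proximal intestine at 5.42 and Onecut2 at 25.4. Of the listed proximal genes 3 of 5 tested were at least 2-fold lower than in the other E12.5 cells (Gata4, Pdx1 and Onecut2), with 1.9% of all features. Of the distal ones 2 of 4 were higher, Wnt11 among them, with 3.32% of all features. The foregut gene Sox2 was higher too, at 2.71 CPM. After thinning, 52.9% of its cells had a Hox UMI (47.7 to 58.1) and 29.3% had one of groups 9 to 13 (24.7 to 34.1), at a median depth of 17570 UMIs, while over all E12.5 cells 4.48% had one of groups 9 to 13. A group 13 UMI was seen in 85 of its 404 cells without thinning (21.0%) and in 73 of the 3646 other E12.5 cells (2.00%). Among the other clusters the share was highest in cluster 10 (5 of 50 cells, 10.0%) and cluster 9 (5 of 53 cells, 9.43%). Of the 91 E12.5 cells with Hoxb13, 52 also had Hoxa13 and 40 had Hoxd13.

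**Figure D3:**
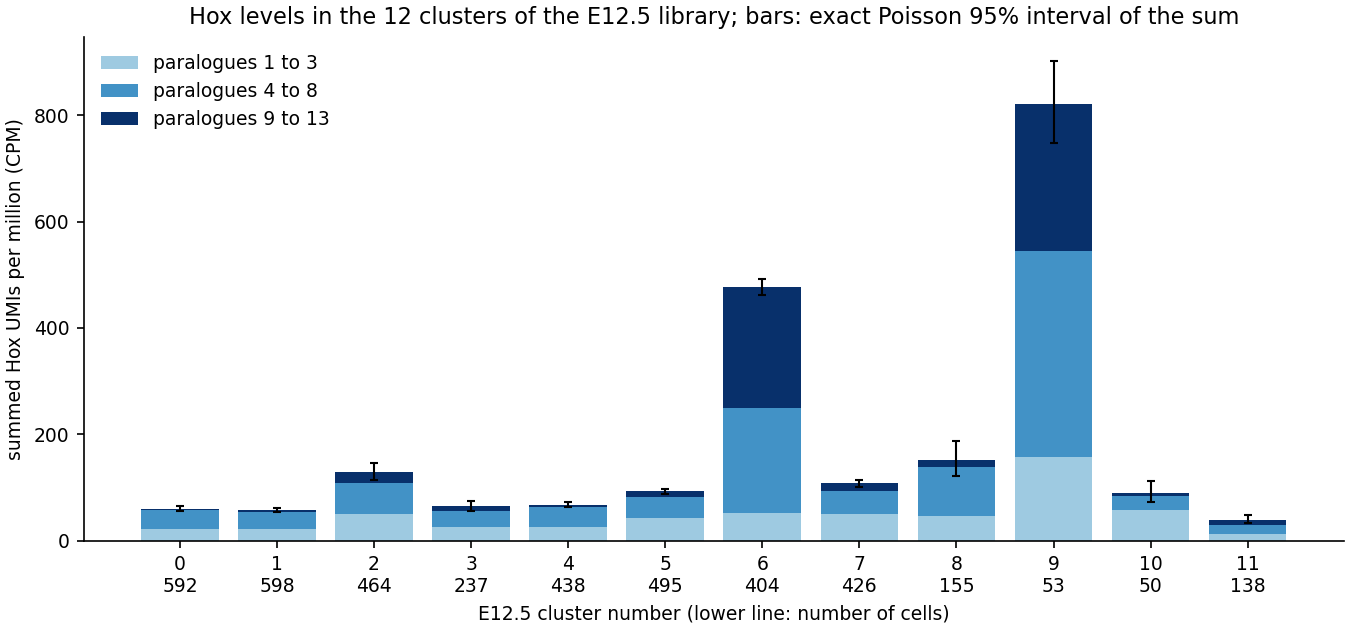
Summed Hox level (CPM) in the 12 clusters of the E12.5 library, stacked by paralogue groups 1 to 3, 4 to 8 and 9 to 13, with the Poisson interval of the sum. Cluster 6 (477 CPM) is built largely from groups 9 to 13 and 4 to 8, and the 53 cells of cluster 9 reach 822 CPM.

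With cluster 6 left out, the E12.5 sum was 82.8 CPM and the difference from E17.5 was smaller but kept its direction: 2.01-fold over all members (1.92 to 2.11), 2.91-fold in groups 1 to 3, 1.43-fold in groups 4 to 8 and 5.34-fold in groups 9 to 13 (4.37 to 6.58). Only 7 of 33 tested members were then at least 2-fold lower at E17.5 (21.2%, with 14.4% of all features), with Hoxa4, Hoxa10, Hoxb2, Hoxb13, Hoxc4 and Hoxd3 among them. None was at least 2-fold higher (13.4% of all features). Hoxb13 was still at least 47.0-fold lower, whereas Hoxb7 stood at 6.59 CPM in those E12.5 cells and 11.7 at E17.5, 1.77-fold higher (1.58 to 1.99). Cluster 9 was high as well, at 822 CPM. Its 53 cells had Epcam at 405 CPM together with the stromal genes Col1a1 (172 CPM), Acta2 and Foxf1 among or near its leading genes, it was left unnamed, and it held 82 of the 234 HoxC UMIs of the library (35.0%), with all 34 Hoxc8 UMIs. Without it the E12.5 sum was 115 CPM.

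The remaining E12.5 epithelium differed in its anterior and middle genes. Clusters 5 and 7, where Onecut2 was at 450 and 434 CPM and Gata4 at 68.4 and 66.3, had Hoxa5 at 6.66 and 12.6 CPM, against 0.422, 1.15 and 0.564 in clusters 0, 1 and 4, where Onecut2 was between 33.8 and 65.0. Hoxb2 followed the same split, at 18.7 and 24.2 against 6.42, 7.58 and 6.85. Hoxb7 was split in reverse, at 3.69 and 3.78 CPM in clusters 5 and 7 against 8.45, 7.88 and 10.6, as was Hoxb8, at 1.79 and 1.51 against 6.17, 4.90 and 6.85, and Hoxd3, at 0.727 and 0.324 against 2.96, 1.61 and 2.50. Cluster 10, 50 cells led by Nkx6-3 and Gkn3 with Onecut2 at 1174 CPM and Pdx1 at 114, had 0 UMIs of Hoxb5, Hoxb6, Hoxb7, Hoxb8 and Hoxb9. It did not lack posterior genes: groups 9 to 13 had 7 UMIs there (7.39 CPM, 2.97 to 15.2), and 4 of its cells had Hoxa13. Cluster 11, with the pancreatic genes Cpa1 and Ptf1a among its leading genes, had the lowest sum, 39.8 CPM.

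Several of these genes are known targets of Cdx proteins, the caudal-type homeodomain factors of the intestine, and their promoters were therefore searched. Windows from 250 bases before to 50 bases after a RefSeq transcript start (GRCm38.p6) were held for 22 of the 39 symbols, 24 windows in all. The letters TTTATG, which Cdx proteins recognise, or their reverse complement CATAAA, occurred in 5 of the 24 (20.8%) and in 3893 of 32851 promoter windows of all genes (11.9%). The 3 windows below show a middle HoxA gene that was low at E17.5 and high in adult cells, the HoxB gene that passed 2-fold between the adult pools, and a group 13 gene seen almost only at E12.5. They read 5' to 3' on the gene's strand, with matches in capitals.
Hoxa7, chr6:52218524-52218823, minus strand: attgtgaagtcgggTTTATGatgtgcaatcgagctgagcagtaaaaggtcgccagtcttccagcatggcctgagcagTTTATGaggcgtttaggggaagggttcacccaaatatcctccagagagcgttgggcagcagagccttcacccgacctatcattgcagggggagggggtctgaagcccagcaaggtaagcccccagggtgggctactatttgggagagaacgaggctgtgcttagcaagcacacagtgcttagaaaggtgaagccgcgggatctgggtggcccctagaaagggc
Hoxb8, chr11:96281655-96281954, plus strand: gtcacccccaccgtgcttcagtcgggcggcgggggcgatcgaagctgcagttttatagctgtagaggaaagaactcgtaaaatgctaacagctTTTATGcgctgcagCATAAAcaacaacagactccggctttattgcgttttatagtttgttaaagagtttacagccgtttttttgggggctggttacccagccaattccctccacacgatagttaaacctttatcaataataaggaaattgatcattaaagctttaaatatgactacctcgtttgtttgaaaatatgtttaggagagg
Hoxa13, chr6:52260831-52261130, minus strand: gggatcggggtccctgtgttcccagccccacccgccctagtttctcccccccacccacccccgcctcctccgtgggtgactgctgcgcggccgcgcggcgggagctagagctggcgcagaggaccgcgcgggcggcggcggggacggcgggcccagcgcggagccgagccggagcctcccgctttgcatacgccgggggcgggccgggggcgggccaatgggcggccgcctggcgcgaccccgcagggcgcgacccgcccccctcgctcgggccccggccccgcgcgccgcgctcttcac
Hoxa7 and Hoxb8 each hold 2 matches, both on the gene's strand in Hoxa7 and 1 per strand in Hoxb8, and Hoxa13 holds none. The other windows with a match were those of Hoxd4 (2 matches) and Hoxd3 (1 match) and 1 of the 2 Hoxd11 windows (1 match). Hoxd3 and Hoxd11 were, like Hoxa13, seen mostly at E12.5, so matches were not confined to genes present in adult cells. GC content was 55.7% in the Hoxa7 window, 42.3% in Hoxb8 and 81.0% in Hoxa13, with a median of 57.6% over the member windows and 52.7% over all windows. A match describes the letters and shows no binding.

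The E17.5 stroma had the highest Hox level of any pool, and it differed from the epithelium of the same library in kind as well as in amount. Of the 40 rows, 22 could be compared, and 19 of these were at least 2-fold higher in the stroma (86.4%, with 17.7% of all 15654 features) and 0 were lower (17.7% of all features), with a median log2 ratio of 2.98 against -0.06. HoxC was 366-fold higher (255 to 544), HoxA 12.4-fold and HoxB 8.40-fold (7.57 to 9.30). Hoxc8, known from motor neuron and skeletal patterning, had 184 UMIs in 259 stromal cells and 3 in 3476 epithelial cells, a CPM ratio of 2108 (710 to 10314). Hoxc6 was at 35.4 CPM in the stroma and 0.338 in the epithelium (105-fold; 63.1 to 181) and Hoxc4 at 26.0 and 0.0966 (269-fold; 115 to 770). Hoxc5 had 21 stromal and 2 epithelial UMIs (361-fold; 88.2 to 3174), and Hoxc9 was at 13.3 CPM in the stroma with none in the epithelium, at least 275-fold higher. Among the rest, Hoxa7 was 31.8-fold higher, Hoxa4 28.2-fold, Hoxb2 16.3-fold (13.2 to 19.9), Hoxb6 12.4-fold, Hoxb4 11.4-fold, Hoxa5 11.1-fold, Hoxb3 9.66-fold, Hoxb8 8.41-fold, Hoxb5 6.50-fold, Hoxa10 5.15-fold, Hoxa3 4.80-fold and Hoxb7 3.22-fold (2.48 to 4.14). The 3 tested members that did not pass were Hoxd3, Hoxa9 and Hoxb9. Groups 9 to 13 together were 11.5-fold higher in the stroma (7.67 to 16.8), close to the 11.6-fold of groups 1 to 3 (9.94 to 13.4). No group 11 to 13 member reached 3 UMIs in the stroma, where 3 UMIs stand for 1.66 CPM, and groups 11 to 13 had 0 UMIs in the epithelium.

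The 5 stromal clusters had summed levels from 444 to 811 CPM, with mesenchymal-like cells at 504 (118 cells), smooth muscle-like cells at 579 (119 cells) and mesothelial-like cells at 811 (22 cells). Hoxc8 was detected in all 5, between 52.6 and 139 CPM. HoxC summed to 166, 191 and 272 CPM in the 3 classes, in that order. Hoxa6 to Hoxa13 were at 13.2 CPM in mesenchymal-like cells (6.32 to 24.2), 21.9 in smooth muscle-like cells (13.2 to 34.2) and 88.9 in mesothelial-like cells (50.8 to 144; 16 UMIs), and the mesothelial interval lay apart from the others. The mesothelial values rest on 22 cells.

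Within the E17.5 library outside the stroma, the Hox genes were highest in 3 enteroendocrine-like clusters and lowest in the acinar-like and islet-like clusters and in clusters 16 and 18, at 2.87 and 2.66 CPM. The endocrine clusters 3, 21, 4 and 5 had 149, 139, 126 and 80.3 CPM, where clusters 3, 21 and 5 have no marker of that class and 1 of another among their 10 leading genes and were named on the whole marker list, clusters 10 and 1 had 53.2 and 47.1, and cluster 20, led by the endocrine progenitor gene Neurog3, had 14.4. Stem-like clusters were at 39.7 and 30.6 CPM, the goblet-like cluster, which also had Paneth cell defensins among its leading genes, at 36.3, and the enterocyte-like cluster 14 at 13.4. The acinar-like clusters had 1.74 and 1.70 CPM and the islet-like cluster 3.36, while the unnamed cluster 22, 48 cells with the islet hormone genes Sst, Pyy and Ppy among its leading genes, had 92.1 CPM (60.7 to 134; 27 UMIs). Cluster 11, led by the ileal bile acid genes Fabp6 and Slc10a2, had 44.2 CPM of HoxB and 1.54 of HoxA (7 UMIs). Hoxb7 in that cluster was at 25.5 CPM and Hoxb2 at 0.440, while in the enterocyte-like cluster 14 Hoxb7 was at 6.32.

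**Figure D4:**
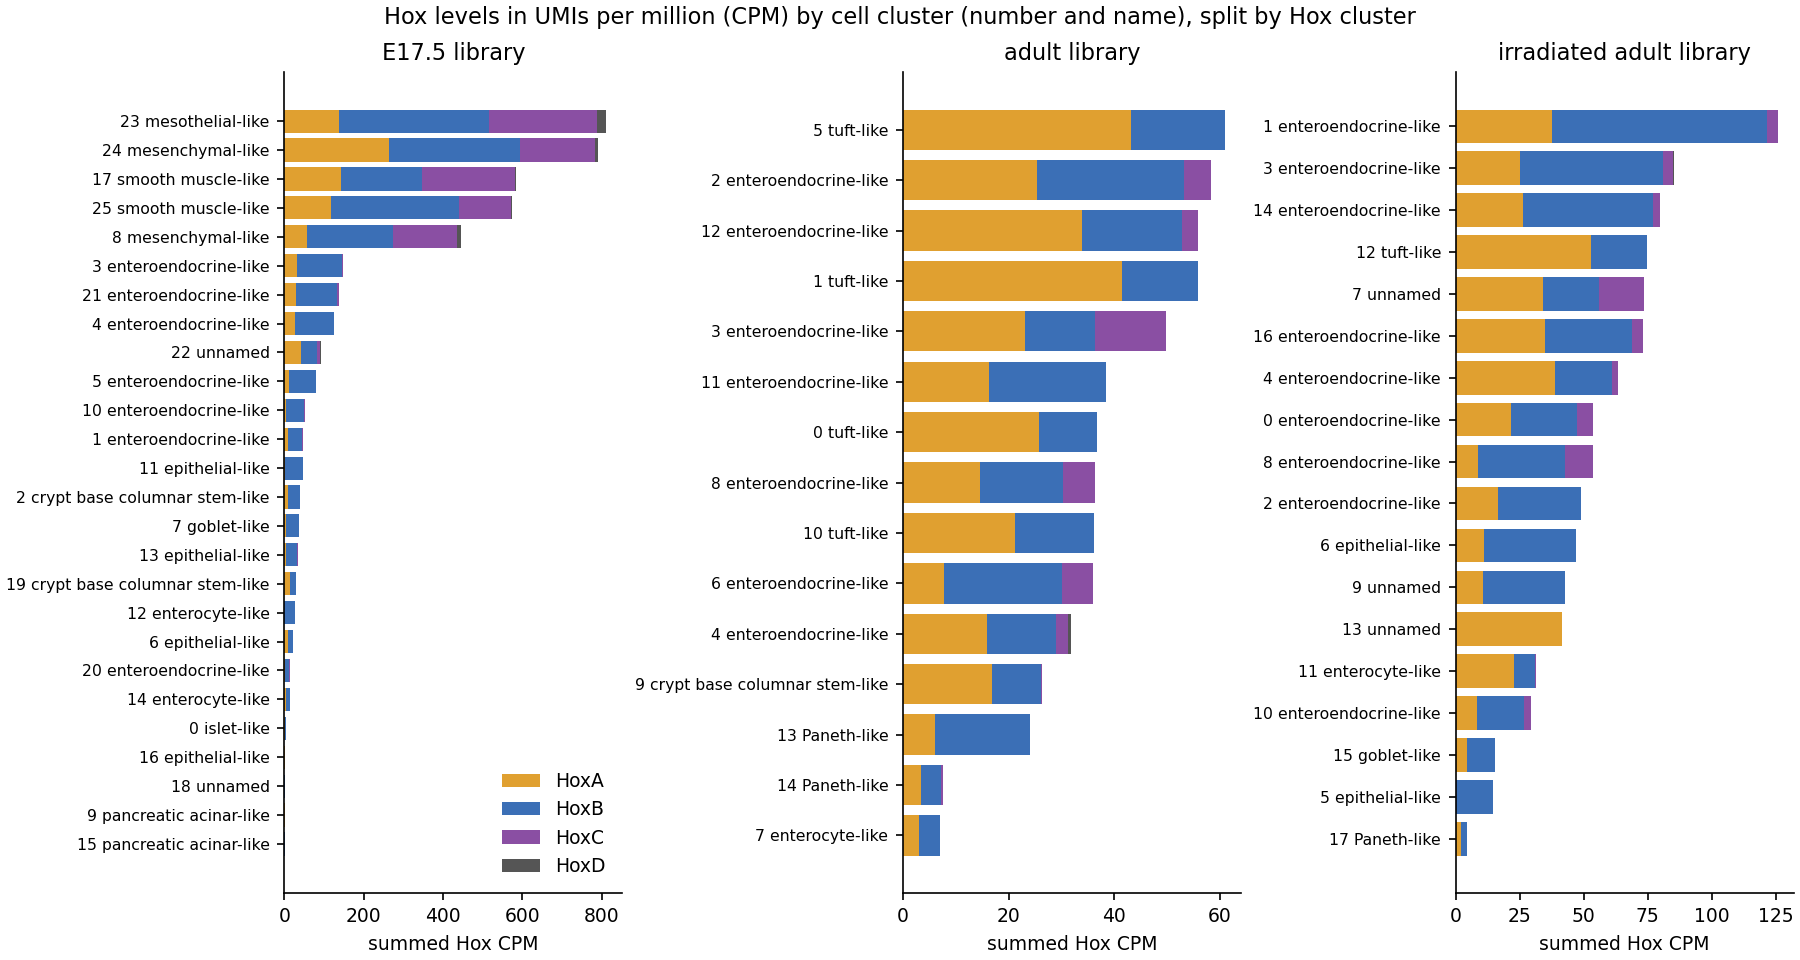
Summed Hox level (CPM) by cell cluster in the E17.5, adult and irradiated adult libraries, stacked by HoxA, HoxB, HoxC and HoxD. At E17.5 the 5 stromal clusters (444 to 811 CPM) lie above every epithelial cluster. In adult cells HoxC is missing from the tuft-like clusters and from clusters 7, 11 and 13.

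Endocrine cells were also grouped by the hormone gene with the most UMIs, which fixes no Hox level. At E17.5 the middle HoxB genes separated these groups. Hoxb8 had 28 UMIs in 55 Gcg cells (54.8 CPM), 17 in 74 Nts cells (25.7), 5 in 205 Cck cells (2.53) and none in 91 Gip cells. Hoxb7 was at 49.0 CPM in Gcg cells, 28.7 in Nts, 7.60 in Cck and 10.6 in Gip cells. Hoxa5 was higher in the Gip and Cck cells (13.2 and 12.7 CPM) than in the Nts and Gcg cells (1.51 and 3.92), and so was Hoxb2, at 22.5 and 29.4 against 9.06 and 7.84. Gip is the hormone of duodenal K cells, and Gcg and Nts are more common in distal small intestine. Pdx1 was at 122 CPM in the Gip, 51.7 in the Cck, 4.53 in the Nts and 33.3 in the Gcg cells. In Sst cells (61) HoxA had 0 UMIs and HoxB was at 36.4 CPM. The part of gut position in these differences was not tested.

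From E17.5 to the adult the summed level was 1.17-fold lower, but the clusters parted: HoxA was 2.04-fold higher (1.82 to 2.29) and HoxB 2.28-fold lower (2.04 to 2.54). HoxC was 4.49-fold higher (2.91 to 7.06) and groups 9 to 13 were 2.97-fold higher (2.31 to 3.82). Of 19 members that could be compared, 3 were at least 2-fold higher (15.8%, with 12.5% of all 15985 features): Hoxa7 at 6.41-fold (4.45 to 9.40), Hoxa9 at 4.00-fold (2.94 to 5.51) and Hoxc6 at 5.95-fold (3.57 to 10.3). Hoxb7 alone was at least 2-fold lower, at 3.41-fold (2.77 to 4.24), 5.26% of members with 12.6% of all features. The median log2 ratio was -0.24 over these members and -0.06 over all features, so neither count stands far from its background. Hoxb8 was 3.34-fold lower (2.08 to 5.63), yet at -0.95 on log2(CPM + 1) it missed the rule. Outside the enteroendocrine-like cells, 2 of 17 tested members were higher by the rule (Hoxa5 and Hoxa7; 9.86% of all features), Hoxb7 alone was lower (15.4% of all features), Hoxa9 was not called (2.98-fold), and Hoxc6 had only 2 UMIs in each pool and was not tested. Enteroendocrine-like cells were 1358 of 3476 epithelial cells at E17.5 and 2222 of 3597 in adult cells, and the summed levels outside that class were therefore compared as well. The unnamed E17.5 clusters 18 and 22, first scored as enteroendocrine-like, were left out there too, so that 1972 E17.5 cells remained. There HoxA was 2.28-fold higher in the adult (1.95 to 2.66), HoxB stood at 0.407 of the E17.5 level (0.342 to 0.482) and groups 9 to 13 were 1.98-fold higher (1.34 to 2.92), whereas HoxC had 2 UMIs in the adult and 10 at E17.5, a ratio of 0.595 (0.0634 to 2.79). Of these 1375 adult cells 974 were tuft-like, a class without a cluster at E17.5, and they held 167 of the 296 HoxA UMIs. The part of tuft-like cells in the HoxA ratio and in the Hoxa5 call was not tested.

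Tuft-like and enteroendocrine-like cells of the adult used different stretches of HoxA. Summed Hox levels were similar, at 50.1 CPM in 974 tuft-like cells (43.8 to 57.0) and 46.4 in 2222 enteroendocrine-like cells (42.8 to 50.3). HoxA as a whole was at 36.2 and 21.5 CPM, but Hoxa6 to Hoxa13 were at 2.38 CPM in the tuft-like (1.19 to 4.27) and 14.8 in the enteroendocrine-like cells (12.8 to 17.1). Hoxa3 was at 12.8 against 1.02 CPM, Hoxa4 at 5.85 against 0.862 and Hoxa5 at 11.5 against 4.54, all higher in the tuft-like cells. Hoxa7 was at 0.217 against 5.80 CPM and Hoxa9 at 1.73 against 6.89, both lower there. HoxC had 0 of the 231 Hox UMIs of the tuft-like cells, while Hoxc6 was at 4.54 CPM in the enteroendocrine-like cells. This was not particular to tuft-like cells. HoxC had 1 of 171 Hox UMIs in adult stem-like, 1 of 35 in Paneth-like and 0 of 14 in enterocyte-like cells, and 0 of 61 in enteroendocrine-like cluster 11. Hoxb2 was at 0.650 CPM in tuft-like and 4.07 in enteroendocrine-like cells.

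In the irradiated adult library the same order was seen, with a smaller gap in the posterior stretch. There Hoxa6 to Hoxa13 were at 7.85 CPM in 275 tuft-like cells (4.05 to 13.7) and 13.7 in 1781 enteroendocrine-like cells (12.2 to 15.4), where the intervals overlap. Hoxa3 was at 9.81 against 2.12 CPM, Hoxa4 at 16.4 against 1.36 and Hoxa7 at 3.92 against 7.38, and Hoxc6 had no UMI in the tuft-like cells against 3.24 CPM. Among other adult cells, the dividing stem-like cluster lay nearer the endocrine cells, with Hoxa6 to Hoxa13 at 11.4 CPM. Paneth-like cells were low in both adult libraries, at 8.92 and 4.61 CPM.

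Over all epithelial cells the adult and irradiated adult libraries differed in HoxB and not detectably in HoxA, but HoxB was not higher in the irradiated library once the enteroendocrine-like cells were left out. HoxB was 1.92-fold higher in the irradiated library (1.71 to 2.16), HoxA stood at 0.998 of the adult level (0.894 to 1.12) and HoxC at 1.19 (0.873 to 1.64). By band the ratios were 1.41 for groups 1 to 3, 1.46 for groups 4 to 8 and 0.935 for groups 9 to 13. Outside the enteroendocrine-like cells the direction turned: the summed level was 21.8 CPM in the irradiated library against 26.5 in the adult one, a ratio of 0.825 (0.716 to 0.950), with HoxB at 7.93 against 8.98 CPM (0.883; 0.694 to 1.12) and HoxA at 13.7 against 17.4 (0.790; 0.662 to 0.943). That pool of 872 irradiated cells also leaves out the unnamed clusters 7 and 9, which were first scored as enteroendocrine-like. They held 304 and 74 cells, at 73.5 and 42.9 CPM, and their part in the turn was not tested. In the pool so defined, 0 of 12 tested members were at least 2-fold higher (5.44% of all features) or lower (12.2% of all features). Of these members 11 lay below 0, and the median log2 ratio was -0.15 against -0.35 over all features. Of the UMIs in these pools outside the enteroendocrine-like class, Paneth-like cells held 7154465 of 16390442 in the irradiated library and 3924411 of 17040609 in the adult one. Their summed Hox level was 4.61 against 8.92 CPM (a ratio of 0.517, 0.312 to 0.857). In tuft-like cells it was 74.6 against 50.1 CPM (1.49-fold, 1.18 to 1.87). The part of this cell mix in the turn was not tested. The values that follow are again over all epithelial cells. Hoxb2 was 1.91-fold higher (1.46 to 2.53), Hoxb3 1.82-fold, Hoxb4 1.85-fold, Hoxb5 2.64-fold (1.49 to 4.94), Hoxb6 1.54-fold, Hoxb7 1.64-fold and Hoxb8 3.58-fold (2.19 to 6.12). Hoxb9 had 17 UMIs against 1 (13.1-fold; 2.05 to 546). Hoxa9 stood at 0.738 of the adult level and Hoxa7 at 1.30. By the 2-fold rule Hoxb8 alone of 19 tested members was higher (5.26%, with 2.59% of all 15157 features), 0 were lower (4.78% of all features), and the median log2 ratio was 0.27 against -0.04. That single call sits at 1.02 on the log2 scale and is lost when irradiated cluster 1 is left out, when every deposited barcode or putative doublets are kept, under a stricter cell filter and outside the enteroendocrine-like cells.

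Of 8 hormone groups of endocrine cells, HoxB was higher in the irradiated library in 7 and lower in 1, and the interval of the ratio excluded 1 in 4 of them. HoxB went from 16.2 CPM in adult Gip cells to 39.8 in irradiated ones (2.46-fold; 1.76 to 3.44), from 21.3 to 43.0 in Cck cells (2.02-fold; 1.45 to 2.88), from 20.1 to 36.1 in Sct cells (1.80-fold; 1.44 to 2.27) and from 22.5 to 36.4 in Sst cells (1.62-fold; 1.00 to 2.71). HoxA ratios in these groups were 1.35, 1.03, 1.10 and 1.40. Gcg cells went the other way, with HoxB at 106.5 CPM in 10 adult cells and 64.2 in 21 irradiated ones, a ratio of 0.603 (0.265 to 1.5). HoxB rested on few adult UMIs in Ghrl cells (4 against 11 irradiated; 1.55-fold, 0.460 to 6.68), Nts cells (2 against 4; 5.75-fold, 0.824 to 63.5) and Tph1 cells (1 against 60; 5.72-fold, 0.988 to 229). Depth per cell differed for Gip cells (median 2491 UMIs in 1062 adult cells, 13418 in 168 irradiated cells) and was alike for Cck cells (15802 and 15128). Irradiated cluster 7, led by Gip, was left unnamed as shallow and lies outside these groups (304 cells, median 2627 UMIs, HoxB at 21.9 CPM). Adult cluster 3, with Rfx6, Pclo and Cnr1 among its leading genes too, was kept (906 cells, median 2323.5 UMIs, HoxB at 13.3 CPM). In the deeper Gip-led clusters, adult 12 and irradiated 16, HoxB was at 19.0 and 33.9 CPM. In tuft-like cells HoxB was at 13.9 and 21.6 CPM (1.56-fold; 0.990 to 2.40), and HoxA was 1.46-fold higher (1.11 to 1.92). In Paneth-like cells HoxB was at 5.10 and 2.52 CPM, a ratio of 0.494 (0.246 to 0.983). Sort gates and intestinal region could differ between the 2 adult libraries, and they cannot be told apart from irradiation.

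**Figure D5:**
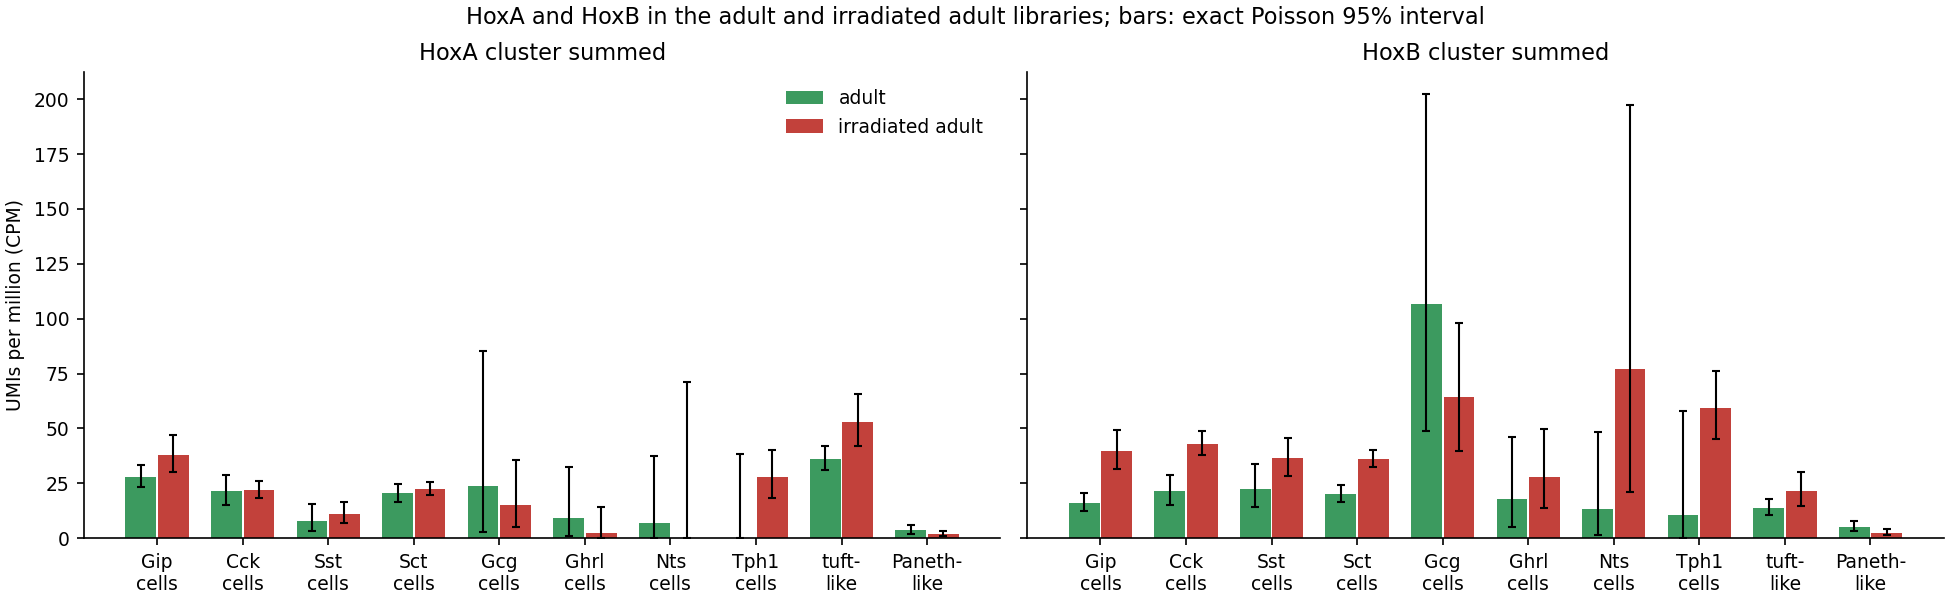
HoxA and HoxB levels (CPM, with Poisson intervals) in cells of the 8 hormone groups and in tuft-like and Paneth-like cells of the adult and irradiated adult libraries. HoxB lies higher in the irradiated library in Gip, Cck, Sst and Sct cells and lower in Gcg and Paneth-like cells, and the Ghrl, Nts and Tph1 groups have at most 4 adult HoxB UMIs each.

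Genes that work with or upstream of Hox proteins were followed by the same rule. Of the TALE cofactors, which bind DNA together with Hox proteins, 1 of 9 tested was higher at E17.5 than at E12.5 (13.1% of all features) and 5 were lower (14.5% of all features). Meis1 was at 57.1 CPM at E12.5, 6.29 at E17.5 and 0.0671 in adult cells, and Meis2 at 13.05, 42.4 and 2.65. In the stroma 7 of 8 tested cofactors were higher than in the epithelium (17.7% of all features), Meis2 at 385 CPM among them. Of 10 tested ParaHox genes and upstream regulators Cdx1 was higher at E17.5, at 91.6 against 1.03 CPM, and Rarb, Rarg and Cyp26b1, which act in retinoic acid signalling, were lower, Rarb at 0.225 against 29.5 CPM. Cdx2 was at 304, 202, 99.4 and 86.3 CPM in the epithelial pools in order of age and treatment, and at 6.64 in the stroma. Of 17 tested Polycomb genes, which keep Hox genes silent, 4 were lower at E17.5 than at E12.5 (Cbx2, Phc1, Phc2 and Ezh2) and 3 were higher in adult cells than at E17.5 (Cbx7, Ezh1 and Jarid2), shares not far from the 14.5% and 12.5% of all features. Ezh2 was at 246, 85.4, 42.9 and 26.1 CPM, while Bmi1, the gene behind the reporter, was at 15.8, 10.4, 11.3 and 14.2. Between the adult libraries 0 of 7 tested cofactors and 0 of 17 Polycomb genes passed 2-fold by this rule, and of 6 tested ParaHox genes and upstream regulators Rarg alone was higher, at 4.49 CPM in the irradiated library against 1.41. Over all features 2.59% were higher and 4.78% lower in that comparison. No test with replicates was possible.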

How the data were processed

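Each group had 1 library of sorted Bmi1-GFP intestinal epithelial cells, made with the 10x 3' chemistry (version 3). The deposited files are count matrices: the authors deposited whole-number UMI counts per gene and barcode, and Cell Ranger 3.1.0 and the mm10 build are named per the submitters' processing notes. Settings, annotation, and whether strand was used in counting are not given in the sources used here, so reads of overlapping antisense genes cannot be told apart from those of the members. Of the members found by identifier in the mm10 gene annotation, 8 share at least 5% of their exon bases with another gene on the same strand (Hoxd3, Hoxd4, Hoxa2, Hoxd11, Hoxc10, Hoxa3, Hoxd10 and Hoxc5), and the second Hoxd4 row was not in that annotation.

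Barcodes under 500 genes or over 20% mitochondrial UMIs were dropped, as were those with the highest doublet scores (Scrublet in scanpy 1.11.5), 0.8% for each 1000 deposited barcodes. Each library was clustered alone (2000 variable genes without Hox-named ones, 30 components, 20 neighbours, Leiden resolution 1, igraph 0.11.9) and clusters were named from marker lists, with naming thresholds that were set after seeing the clusters: a score of at least 0.5 and 3 detected markers, with lineage clusters left unnamed where the top 10 genes held at least 2 more markers of another class than of their own, where they were shallow with no own marker there, or where islet hormone genes led endocrine ones. E17.5 clusters 3, 5 and 21 and adult cluster 6 kept the enteroendocrine-like name with 0 own and 1 other marker among those genes, and clusters named only epithelial were not held to the leading-gene rule. Pools outside the enteroendocrine-like cells also left out clusters that had that name before they were left unnamed. These were E12.5 cluster 8, E17.5 clusters 18 and 22 and irradiated clusters 7 and 9. UMIs were summed over cells to CPM with exact Poisson intervals (scipy 1.17.1). Ratio intervals are exact conditional ones, and shares have Clopper-Pearson intervals after thinning to 2000 UMIs. Features with at least 10 UMIs in either pool were compared as log2(CPM + 1) and called at 2-fold. A hormone group took cells with at least 5 UMIs of the leading hormone gene. The ratio step was tested on simulated counts. No test between groups is possible with 1 library each, so no p-value is given.

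Members named with values had at least 100 UMIs in an epithelial pool or in the stroma, others by ranges or where a count needed naming, and a few genes are not reported here. The members, lists, clusters and rules were chosen with earlier results of these data known. Alternatives were another cell filter, doublets kept, Hox genes left in the clustering, other resolutions, unnamed clusters left out, mean CPM per cell, TMM scaling (edgeR 4.0.16), mitochondrial and ribosomal genes left out, other pseudocounts and UMI minimums, other thinning depths, and, chosen after seeing the data, E12.5 clusters 6 and 9, irradiated cluster 1, clusters with pancreas genes and, for summed levels, the enteroendocrine-like class left out.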

Additional observations from a re-analysis of the deposited data

How the results depend on the processing

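Of 260 alternative values, 186 stayed close to the reported one (within the counting interval, or within 1.5 times for a count), 68 moved and 6 reversed, all 6 of them ratios of summed levels outside the enteroendocrine-like cells. No paired analysis was possible because each group had 1 library. The E12.5 sum was 115 CPM under the stricter filter, 117 at resolution 2, 115 without unnamed clusters, 123 without clusters with pancreas genes, 82.8 without cluster 6, 115 without cluster 9, 143 as the mean of cells, 117 with TMM and 160.1 without mitochondrial and ribosomal genes. With the mean of cells the E17.5, adult and irradiated sums were 54.7, 43.9 and 60.0 CPM, without mitochondrial and ribosomal genes 54.3, 42.6 and 55.5 (stroma 733), and with TMM 43.7 at E17.5, 53.2 irradiated and 473 in the stroma. The irradiated sum was 43.8 without cluster 1. The mean paralogue number was 4.79 at E12.5 without cluster 6, 5.67 in the adult and 5.47 irradiated under the stricter filter, and 5.23 irradiated with every barcode.

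Outside the enteroendocrine-like cells, an alternative for summed levels chosen after seeing the data, the irradiated to adult ratio reversed to 0.825 for all members, 0.883 for HoxB, 0.764 for groups 1 to 3 and 0.881 for groups 4 to 8, and moved to 0.790 for HoxA and 0.678 for groups 9 to 13. The adult to E17.5 ratio reversed to 0.595 for HoxC (2 and 10 UMIs) and to 1.02 for groups 1 to 3, and moved to 1.98 for groups 9 to 13. The E17.5 to E12.5 ratio kept its direction, at 0.253 for all members, 0.214 for HoxA, 0.301 for HoxB, 0.0691 for HoxC, 0.223 for groups 1 to 3, 0.388 for groups 4 to 8 and 0.0450 for groups 9 to 13.

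Counts of members past 2-fold depended on the pseudocount. With 0.1 CPM they were 30 lower from E12.5 to E17.5, 5 higher and 6 lower from E17.5 to the adult, 3 higher after irradiation and 1 lower in the stroma, and with 10 CPM they were 0 in the first 3 comparisons. From E12.5 to E17.5, 7 were lower without cluster 6. From E17.5 to the adult, 2 were lower without clusters with pancreas genes, 2 without mitochondrial and ribosomal genes and 4 by the mean of cells. After irradiation 0 were higher with every barcode, under the stricter filter, with doublets kept, without cluster 1 and outside the enteroendocrine-like cells. With at least 50 UMIs, 12 were higher in the stroma. Thinned to 1000, to 4000 and not thinned, the share of cells with a Hox UMI was 10.6%, 31.2% and 61.8% at E12.5, 5.07%, 15.3% and 35.2% at E17.5, 4.18%, 14.3% and 17.7% in the adult, 5.31%, 17.2% and 29.7% irradiated, and 43.0%, 88.3% and 94.2% in the stroma.

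Intervals cover counting error only. Differences between libraries were not set against animal-to-animal spread, and stage, treatment, tissue region and library cannot be told apart.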

Other observations

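Noncoding transcripts of the Hox clusters were read by the same 2-fold rule, with the limit that the strand setting of the counting is not given in the sources used here. Of 6 tested at E17.5 against E12.5, 4 were lower (14.5% of all features). They were Hotairm1 at 0.950 against 7.96 CPM, Hoxaas3 at 3.67 against 15.1, Hoxb5os at 0.225 against 1.63 and Hoxb3os at 1.93 against 5.55. In the adult Hotairm1 stood at 12.7 CPM, above its E12.5 level. In the irradiated adult Hotairm1 was at 5.50 CPM and Hoxaas3 at 3.15 against 7.41 in the adult. These 2 of 3 tested were lower by the rule (4.78% of all features), over all epithelial cells, where summed HoxA matched the adult level. Outside the enteroendocrine-like cells both were lower as well (12.2% of all features), with the HoxA ratio at 0.790. In tuft-like cells HoxA was 1.46-fold higher and 0 of 2 tested noncoding genes were lower (3.33% of all features). In E12.5 cluster 6, of 6 tested, Hottip, at the posterior end of HoxA, was higher (3.32% of all features) and Hotairm1 lower (1.9%) than in the other E12.5 cells.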
